A study of Mus musculus with 24 samples.

Results

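The ON bipolar dendrite signalling complex is described here by 10 genes of the mGluR6 cascade, the receptor gene Grm6, the channel gene Trpm1, Gpr179, Nyx, Lrit3, Rgs11, Rgs7, Gnao1, Pcp2 and Prkca. They were chosen by name, with earlier results of these data known, and each has 1 Ensembl identifier in the count files, so that they make up 10 of the 46603 annotated genes and of the 126602 features counted. All 10 passed the filter on low counts, which left 46949 features for testing, and Grm6 passed it through its counts at D25 and D30.

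RNA was sequenced from 24 whole individual mouse retinal organoids, which are retinal tissues grown from stem cells in culture, with 6 organoids at each of the days D20, D22, D25 and D30 of differentiation. All came from 1 independent experiment with the wild-type mouse embryonic stem cell line E14TG2a, grown by the trisection protocol, in which each aggregate is divided into pieces. All received the retinoid analog EC23 from D10 to D14 per the methods, and the labels name water, the solvent, as what was added over time. All 24 are labelled controls, although the titles carry Ctrl at D22, D25 and D30 and not at D20, and by these descriptions the 4 groups differ in day of culture. Reads counted on features numbered 13634846 to 15793703 per organoid at D20, 13942695 to 15789570 at D22, 14524620 to 18078956 at D25 and 15814895 to 19477108 at D30. At this depth 3 reads correspond to 0.154 to 0.22 CPM, that is, counts scaled to a common library total. Levels below are CPM normalized by TMM library scaling, and log2 fold changes are given ± SE. A gene was called when its adjusted p was below 0.01 in edgeR's quasi-likelihood test over all tested features.

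ON bipolar cells receive glutamate from photoreceptors through the metabotropic receptor mGluR6 at the tips of their dendrites. In the dark the active receptor, through the G protein Go, keeps the cation channel TRPM1 closed, and when glutamate release falls in light the channel opens and the cell depolarizes. Leucine-rich repeat proteins and an orphan receptor hold the components together and bring in RGS proteins, which speed up the switching off of Go, and loss of Grm6, Trpm1, Gpr179, Nyx or Lrit3 causes congenital stationary night blindness.

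In the comparison of D30 with D20, which spans the whole period, the 10 genes moved in different directions. The receptor, the channel, the 3 anchoring genes, Rgs7, Gnao1 and Prkca rose, whereas Rgs11 and Pcp2 fell. That is 10 of 10 genes called, 8 higher and 2 lower, where 26.8% of all tested features were called, 13.8% higher and 12.9% lower. Of the tested annotated genes, to which all 10 belong, 25.0% were called higher and 16.6% lower. The 6 organoids of D30 did not overlap the 6 of D20 for 5 of the genes, Grm6, Trpm1, Rgs11, Pcp2 and Prkca, and for 18.8% of all tested features. Since the genes were chosen with results known, these shares describe them and do not test them. The median log2 fold change of the 10 genes was 1.37, beside -0.04 over all tested features and 0.10 over the tested annotated genes. In whole organoids, more or fewer cells of a type and more or less RNA per cell cannot be told apart.

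The shorter steps show when the genes moved. Between D20 and D22 edgeR called 0 of the 10 genes, where 1.72% of all features were called, 1.4% higher and 0.315% lower, and of annotated genes 2.21% and 0.837%. At an unadjusted p under 0.05 there were 3, namely Grm6 and Prkca, which were higher, and Gpr179, which was lower, and DESeq2 called 0. Changes of about 2-fold or less may be missed at this threshold. The median log2 fold change of the 10 genes was -0.02, beside 0.00 over all features.

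From D22 to D25, Grm6, Trpm1, Gnao1 and Prkca rose and Pcp2 fell. These are 4 genes called higher and 1 lower, where 5.27% of all features were called, 3.19% higher and 2.08% lower, and of annotated genes 7.60% and 2.73%. The organoids of the 2 days did not overlap for 5 genes, Trpm1, Rgs11, Gnao1, Pcp2 and Prkca, of which Rgs11 missed the threshold, and for 5.51% of all features. The median of the 10 genes was 0.49 on the log2 scale, beside -0.04 over all features.

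From D25 to D30, Grm6, Trpm1 and Prkca rose further, Gpr179 and Nyx rose, and Rgs11 fell. That makes 5 genes higher and 1 lower, where 3.47% of all features were called, 1.83% higher and 1.65% lower, and of annotated genes 4.71% and 2.61%, and the organoids of D25 and D30 did not overlap for these 6 genes and for 4.25% of all features. The median was 0.72, beside -0.00 over all features. Whether the change of a gene differed between the steps was not tested, and neighbouring steps share the organoids of the day between them. The balance of rises and falls among annotated genes depends on the scaling. With annotated genes scaled and tested on their own, 16284 in all, 572 were higher and 127 lower in the first step, 1024 and 970 in the second, 742 and 740 in the last and 3777 and 3545 from D20 to D30.

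**Figure D1:**
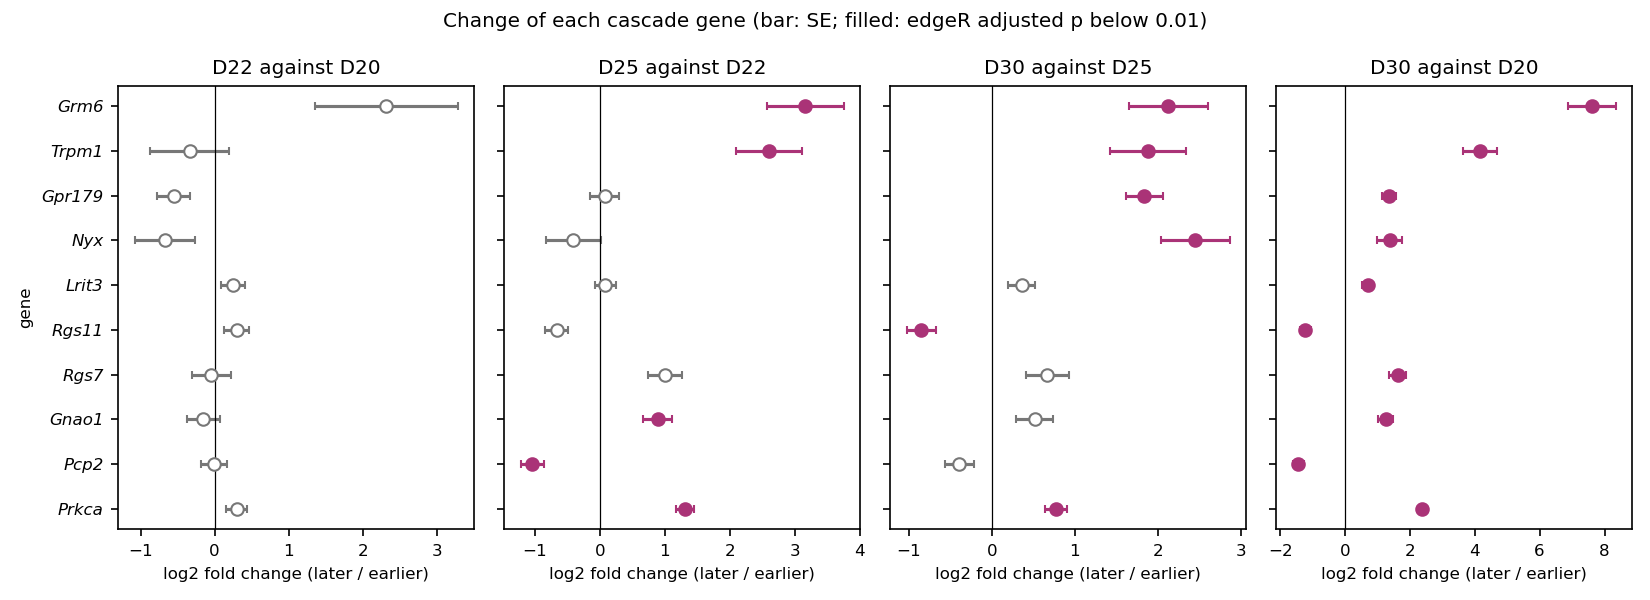
Log2 fold change (later day over earlier day) of each of the 10 genes in 4 comparisons, with bars for the SE and filled points for an edgeR adjusted p below 0.01. From D20 to D22 all 10 points are open, and from D20 to D30 all 10 are filled, with Rgs11 and Pcp2 below 0.

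The label of the complex was checked against markers of bipolar cells, a list of 13 genes of which 12 were tested. From D20 to D30, 8 of the 12 rose and 2 fell, with a median log2 fold change of 3.03. Vsx1, a homeodomain factor of some bipolar types, rose by 5.40 ± 0.64 (adjusted p = 5.57e-08, above all D20 organoids in 6 of 6). The calcium-binding protein genes Scgn and Cabp5 rose by 4.29 ± 0.42 and 5.09 ± 0.29 in the same comparison, and Car8 by 4.96 ± 0.38, each also in 6 of 6. Bipolar markers were thus present and higher at D30, while Otx2, which photoreceptor precursors also express, fell by 1.52 on the log2 scale. Isl1 and Lhx4 were not called in this comparison, and Lhx3 was too low to be tested.

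Otx2 was the most abundant gene of the bipolar list in all 24 organoids, and its fall shaped the sum. The summed normalized CPM of the list averaged 571 ± 55.1 (SD, n = 6) at D20 and 451 ± 64.3 at D30. Without Otx2 the sum averaged 124 ± 17.1 at D20 and 95.01 ± 8.57 at D22, and then 141 ± 13.9 at D25 and 294 ± 52.0 at D30. Over the 3 steps in turn the list had 1, 6 and 4 genes higher and 1 lower in each.

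Markers of OFF bipolar cells, which respond to glutamate through ionotropic receptors, moved as well. By D30, 3 of the 5 tested genes of this list of 6 rose, among them the kainate receptor gene Grik1 (3.84 ± 0.68, adjusted p = 3.23e-05, above all D20 organoids in 6 of 6) and its auxiliary subunit gene Neto1 (4.09 ± 0.75, adjusted p = 5.52e-05, in 5 of 6). Tacr3 fell by 2.22 on the log2 scale. The median of the list was 3.84. In the single steps edgeR called 1 of its genes, Vsx1 from D22 to D25, which the bipolar list also holds. Rises over the whole period were thus called for some markers of OFF bipolar cells too, and Vsx1 among them is on both lists. Which cells held these RNAs was not tested.

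Grm6 encodes mGluR6, the receptor of the cascade, and lies at chr11:50850685-50866208 on the plus strand (GRCm38). Its normalized CPM had a lowest, median and highest value of 0, 0 and 0.273 at D20, of 0, 0.131 and 1.19 at D22, of 1.11, 2.96 and 4.09 at D25 and of 5.48, 11.1 and 19.3 at D30. At D20 the gene was at or under 3 reads in 5 of 6 organoids, and at D22 in 3 of 6. Every D30 organoid was above every D25 organoid, whereas 1 D25 organoid lay below the highest of D22.

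The rise of Grm6 passed the test in both later steps. It was 3.16 ± 0.59 from D22 to D25 (adjusted p = 0.00062, above all D22 organoids in 5 of 6) and 2.13 ± 0.48 from D25 to D30 (adjusted p = 0.00438, in 6 of 6). By DESeq2 the second of these had an adjusted p of 0.0396, the highest of a range from 0.00066 over all alternatives, and it also lost its call without D25 organoid 1, 2 or 5 or D30 organoid 5, with an adjusted p of up to 0.0162. For the step from D22 to D25, leaving out 1 organoid gave log2 fold changes of 2.87 to 4.23, each still called. From D20 to D30 the log2 fold change was 7.61 ± 0.74 (adjusted p = 1.45e-09, in 6 of 6).

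Since the gene was near 0 at D20, a count of reads over the 6 organoids of a day shows the base of that fold change. There were 5 Grm6 reads in all at D20 and 28 at D22, against 289 at D25 and 1243 at D30. Scaled to library size, the D30 reads were 222 times those of D20, with a 95% interval of 95 to 686 that covers counting error only. For D25 the ratio was 51.1 (21.6 to 158), and for D22 it was 5.48 (2.09 to 18.2). These ratios lean on 1 organoid, since 4 of the 5 reads at D20 were in organoid 3, and without it the log2 fold change from D20 to D30 was 9.20 in place of 7.61. The ratio for D22 also leans on D22 organoid 5, which held 17 of the 28 reads of that day. Of the Grm6 exons, 11.05% overlap the antisense gene Gm12660, which had 0 reads at D20 and D22 and at most 8 in an organoid of D25 and 6 in one of D30.

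Promoter windows from 250 bases before to 50 after a transcript start are in the RefSeq table for 9 of the 10 genes, with 13 windows in all (GRCm38.p6), and not for Rgs11. They were searched on both strands for the motifs TAATCC (OTX and CRX type), TAATTA (homeodomain type), CATGTG and CACGTG (MITF type E-boxes) and CATATG (BHLHE22 and BHLHE23 type E-box). TAATTA and also CACGTG and CATATG read the same on both strands, and no motif contains another. Among 32851 promoter windows of all genes, 7.06% hold TAATCC, 5.29% TAATTA, 14.2% CATGTG, 7.15% CACGTG and 3.91% CATATG. The window of Grm6, the gene with the largest change, is shown because its RNA went from near 0 to clear counts. It lies at chr11:50850435-50850734 on the plus strand and holds none of the 5 motifs, which says only that these letters are not in it.

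Grm6 promoter: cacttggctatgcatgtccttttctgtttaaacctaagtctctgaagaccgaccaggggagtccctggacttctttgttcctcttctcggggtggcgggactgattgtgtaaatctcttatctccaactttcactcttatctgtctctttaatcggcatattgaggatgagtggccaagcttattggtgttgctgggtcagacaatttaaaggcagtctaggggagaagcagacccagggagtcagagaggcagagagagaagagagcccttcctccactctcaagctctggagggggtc

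Trpm1, at chr7:64153835-64269775 on the plus strand, encodes the cation channel that the cascade closes. Pigment cells also express it, as a target of MITF. Its normalized CPM ran from a lowest of 0.264 over a median of 1.16 to a highest of 5.60 at D20, and from 0.120 over 1.42 to 4.34 at D22. The values were 4.89, 10.8 and 18.8 at D25 and 32.6, 38.0 and 47.7 at D30. The organoids of D20 and D22 overlapped, all of D25 were above all of D22, and all of D30 were above all of D25.

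Relative to the mean, the spread within a day narrowed for Trpm1. The SD itself was 2.13 and 1.58 normalized CPM at D20 and D22, and higher at D25 and D30, at 5.26 and 6.11. The coefficient of variation between the 6 organoids was 97.4% at D20 and 91.2% at D22, but 49.96% at D25 and 15.7% at D30. The rise was 2.61 ± 0.51 from D22 to D25 (adjusted p = 0.000951, in 6 of 6) and 4.16 ± 0.52 from D20 to D30 (adjusted p = 1.6e-07, in 6 of 6). From D25 to D30 it was 1.88 ± 0.46 (adjusted p = 0.00844, in 6 of 6). This last call was lost with DESeq2, with annotated genes only, with a replicate block and without any 1 of 10 organoids, namely D25 organoids 1, 2, 4, 5 and 6 and D30 organoids 1 to 5. The adjusted p then reached at most 0.0284, in a range from 0.000224 over all alternatives.

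Both RefSeq windows of Trpm1 are shown since the gene has more than 1 start and hold motifs in capitals. The first, at chr7:64153585-64153884 on the plus strand, has CATGTG at -141 from the start and GGATTA, the reverse complement of TAATCC, at -34. The second, at chr7:64185209-64185508 on the plus strand, lies inside the gene and has CACGTG at -229 and CACATG, the reverse complement of CATGTG, at 36. These matches describe the letters and were not tested for binding.

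Trpm1 promoter, first start: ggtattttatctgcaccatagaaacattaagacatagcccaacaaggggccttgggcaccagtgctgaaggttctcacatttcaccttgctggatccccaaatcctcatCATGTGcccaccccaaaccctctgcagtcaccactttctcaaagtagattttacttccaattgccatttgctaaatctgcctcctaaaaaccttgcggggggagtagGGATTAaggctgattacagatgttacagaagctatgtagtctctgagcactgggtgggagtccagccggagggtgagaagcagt

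Trpm1 promoter, second start: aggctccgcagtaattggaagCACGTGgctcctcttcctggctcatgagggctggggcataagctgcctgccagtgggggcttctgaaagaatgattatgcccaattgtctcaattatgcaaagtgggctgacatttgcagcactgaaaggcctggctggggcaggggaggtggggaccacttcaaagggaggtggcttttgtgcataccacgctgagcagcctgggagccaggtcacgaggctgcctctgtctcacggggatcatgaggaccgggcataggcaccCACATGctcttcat

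Because pigment cells express Trpm1, the pigment list of 12 genes was read beside it. In organoids 1 to 6 its summed normalized CPM was 248, 171, 209, 135, 147 and 135 at D20, 167, 153, 93.3, 206, 198 and 328 at D22, 82.9, 320, 336, 667, 322 and 509 at D25, and 376, 2749, 175, 49.0, 494 and 2465 at D30. The most abundant gene was Dct in 14 organoids and Ttr in 10, among them all 6 of D30, where Ttr reached 2631. Ttr is also a gene of the choroid plexus. Of the 6 tested genes, Mitf and Ttr rose from D20 to D30 and Dct fell by 2.35 on the log2 scale, edgeR called 0 in either of the first 2 steps, and Dct was lower at D30 than at D25. At an unadjusted p under 0.05, these counts of 0 compare with 0 genes in the first step and 5 in the next, 4 higher and 1 lower. By DESeq2 there were 0 in both.

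Pigment markers differed in how well they were counted. Dct, Pmel, Mitf and Ttr had reads in all 24 organoids, and Tyr and Tyrp1 had 0 in 2 and in 1, with at most 233 and 490 reads. Rpe65 had 0 reads in 18 of 24 organoids and at most 3 in any, Gpr143 had 0 in 20, Mlana in 12, Slc45a2 in 11, Best1 in 9 and Oca2 in 7. The summed level of Tyr, Tyrp1 and Pmel, 3 genes picked after their values were seen, was 62.9, 39.6, 28.9, 3.29, 5.95 and 23.3 in D30 organoids 1 to 6. D30 organoids 4 and 5 were low in this sum, and their Trpm1 levels were 36.1 and 47.7, within the range of the other D30 organoids or above it. At D20, organoid 1 had both the highest Trpm1 level, 5.60, and the highest sum of the 3 genes, 30.3, and organoid 4 had the lowest of both, 0.264 and 0.659. At D22 the sum in organoids 1 to 6 was 0.0602, 0.680, 0.458, 6.75, 16.1 and 12.4, beside Trpm1 levels of 0.120, 0.952, 0.458, 4.34, 1.89 and 2.61, so that the 3 organoids low in one were low in the other. At D25 the sum was 0.684, 48.5, 36.5, 21.3, 12.6 and 28.6, beside Trpm1 levels of 5.08, 12.8, 18.8, 9.66, 4.89 and 11.9, again with the same 2 organoids lowest in both. At D30 organoid 1 had the highest sum and the lowest Trpm1 level. Other genes of the list were not in the same order, as D22 organoid 1, with the lowest Trpm1 level of its day, had the second highest Dct level, 159. The part of pigment cells in the Trpm1 counts was not tested.

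**Figure D2:**
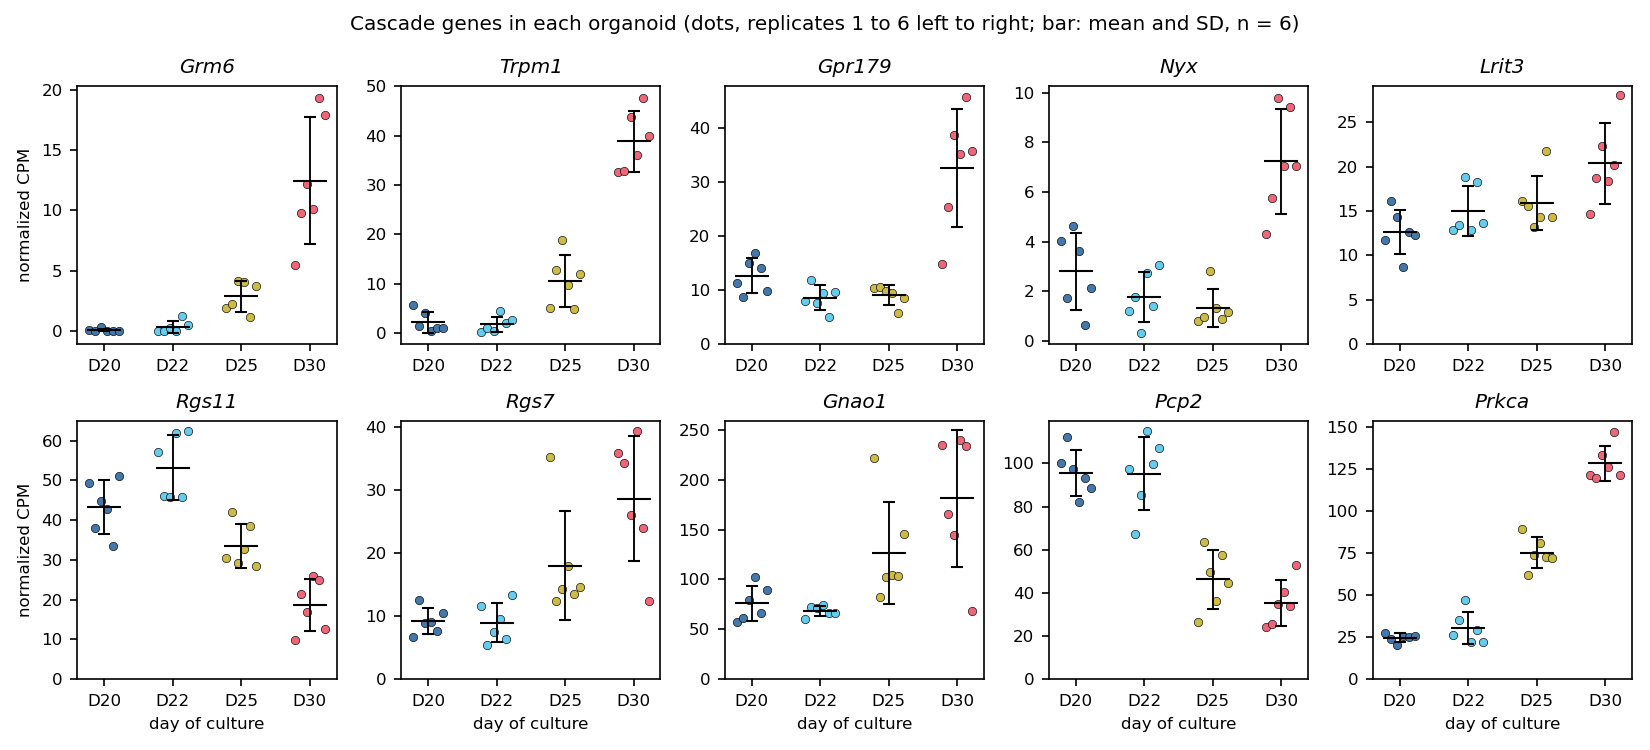
Normalized CPM of each of the 10 genes in every organoid at D20, D22, D25 and D30, with 6 points per day and bars for the mean and SD. Grm6 rises from at most 0.273 at D20 to between 5.48 and 19.3 at D30, and Pcp2 falls from at least 82.0 to at most 53.1.

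Gpr179 encodes an orphan receptor that anchors RGS proteins near mGluR6 and lies at chr11:97332109-97352077 on the minus strand. In contrast to Grm6 it was well counted from the start, with a lowest, median and highest normalized CPM of 8.78, 12.7 and 17.0 at D20, 5.05, 8.78 and 11.9 at D22, 5.88, 9.65 and 10.7 at D25 and 14.9, 35.5 and 45.8 at D30. All 6 D30 organoids exceeded all of D25, and 5 of them exceeded all of D20, the exception being organoid 1 at 14.9. Of the 3 steps the last passed the test, with a rise of 1.84 ± 0.22 from D25 to D30 (adjusted p = 1.43e-06). The rise was 1.36 ± 0.22 from D20 to D30 (adjusted p = 9.5e-06). Its RefSeq window, at chr11:97352307-97352606 on the minus strand, is shown beside that of Grm6 and holds none of the 5 motifs.

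Gpr179 promoter: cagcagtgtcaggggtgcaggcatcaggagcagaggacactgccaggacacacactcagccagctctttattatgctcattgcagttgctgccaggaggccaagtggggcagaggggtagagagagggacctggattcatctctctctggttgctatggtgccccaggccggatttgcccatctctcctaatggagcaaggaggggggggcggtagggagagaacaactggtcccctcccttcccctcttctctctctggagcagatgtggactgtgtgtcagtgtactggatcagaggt

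Nyx encodes nyctalopin, a leucine-rich repeat protein needed for TRPM1 to reach the dendritic tip, and lies at chrX:13466110-13489313 on the plus strand. Its lowest, median and highest normalized CPM were 0.631, 2.87 and 4.63 at D20, 0.327, 1.59 and 3.07 at D22, 0.798, 1.05 and 2.83 at D25, and 4.29, 7.06 and 9.80 at D30. Like Gpr179, the gene was above all D25 values in each D30 organoid, and above all D20 values in 5 of 6. It rose by 2.45 ± 0.42 from D25 to D30 (adjusted p = 0.000211) and by 1.37 ± 0.40 from D20 to D30 (adjusted p = 0.00668). The call from D20 to D30 was lost with annotated genes only (adjusted p = 0.0103) and without D20 organoid 2, 5 or 6 or D30 organoid 3, 4 or 5, in a range of adjusted p from 0.00102 to 0.0187 over all alternatives.

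Lrit3, at chr3:129787881-129804030 on the minus strand, encodes a further leucine-rich repeat protein that acts on the assembly of the complex. Its normalized CPM changed least among the genes that rose, from a lowest, median and highest of 8.70, 12.5 and 16.1 at D20, over 12.8, 13.55 and 18.8 at D22 and 13.2, 15.0 and 21.8 at D25, to 14.6, 19.4 and 28.1 at D30. Neighbouring days overlapped, and no single step passed the test. From D20 to D30 it rose by 0.69 ± 0.17 (adjusted p = 0.00128, above all D20 organoids in 5 of 6). Rises of Grm6 and Trpm1 were thus called by D25, and those of the 3 anchoring genes in the last step or over the whole period.

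Rgs11 and Rgs7 encode RGS proteins, which speed up GTP hydrolysis by Go in ON bipolar cells, and their RNAs moved in opposite directions. Rgs11, at chr17:26202951-26211324 on the plus strand, had a lowest, median and highest normalized CPM of 33.5, 43.9 and 51.2 at D20, 45.8, 51.7 and 62.4 at D22, 28.5, 31.6 and 42.0 at D25 and 9.89, 19.1 and 25.97 at D30. Every D30 organoid was below every organoid of the earlier days, and every D25 organoid was below every D22 organoid. The gene fell by 0.85 ± 0.18 from D25 to D30 (adjusted p = 0.00181) and by 1.22 ± 0.18 from D20 to D30 (adjusted p = 1.72e-06), each in 6 of 6. From D22 to D25 the log2 fold change was -0.67 ± 0.17 with an adjusted p of 0.0105, just short of the threshold. Fitted with the compared days only, the change from D25 to D30 had an adjusted p of 0.0130, the highest of a range from 0.000287. Of its exons, 3.28% overlap Arhgdig on the opposite strand, whose mean stayed between 6.07 and 9.54 normalized CPM.

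Rgs7, at chr1:175059087-175492500 on the minus strand, is widely expressed in neurons. Its lowest, median and highest normalized CPM were 6.64, 9.01 and 12.6 at D20, 5.44, 8.54 and 13.3 at D22, 12.3, 14.5 and 35.2 at D25 and 12.4, 30.2 and 39.3 at D30. It rose by 1.63 ± 0.26 from D20 to D30 (adjusted p = 1.02e-05, above all D20 organoids in 5 of 6). From D22 to D25 the value was 1.00 ± 0.26 (adjusted p = 0.0108) and from D25 to D30 it was 0.67 ± 0.26 (adjusted p = 0.130), neither past the threshold. D25 organoid 1 lay far above the other D25 organoids, and without it the step from D25 to D30 was called (adjusted p = 0.00769), in a range up to 0.277 over all alternatives. The RefSeq window of Rgs7 holds CACGTG at -29.

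Gnao1, which encodes the alpha subunit of Go and is abundant throughout the nervous system, lies at chr8:93809966-93969388 on the plus strand. Its lowest, median and highest normalized CPM were 57.1, 72.7 and 102 at D20, 60.1, 68.9 and 73.9 at D22, 82.0, 104 and 222 at D25 and 68.6, 200.1 and 239.6 at D30. All D25 organoids were above all of D22, and at D30 the organoids were split, with organoid 6 at 68.6 and below all of D25. The rise was 0.89 ± 0.22 from D22 to D25 (adjusted p = 0.00791, in 6 of 6) and 1.25 ± 0.22 from D20 to D30 (adjusted p = 4.03e-05, in 5 of 6). The first of these calls was lost with a replicate block (adjusted p = 0.0157) and without any 1 of 10 organoids, namely D20 organoid 3, all 6 of D22 and D25 organoids 1, 4 and 6, in a range from 0.000998 to 0.0428 over all alternatives. The window of Gnao1 holds CACATG, the reverse complement of CATGTG, at -28.

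Since Gnao1 and Rgs7 are expressed by many neurons, markers of forebrain type neurons were read beside them, 7 genes that all were tested. Retinal neurons express some of them too, Neurod6 in amacrine cells and Slc17a6 in ganglion cells, so that their sum is not a measure of forebrain cells alone. Their summed normalized CPM in organoids 1 to 6 was 30.9, 15.8, 93.7, 61.1, 16.8 and 231 at D20, 14.6, 24.1, 9.42, 15.3, 24.5 and 23.2 at D22, 361, 12.8, 89.9, 120.0, 43.9 and 198 at D25, and 236, 189, 61.6, 208, 234 and 10.8 at D30. Neurod6 was the most abundant of them in 13 organoids and Slc17a6 in 8. From D22 to D25, the step in which Gnao1 was called, Neurod2 and Neurod6 rose and the median log2 fold change was 2.18. All 7 were higher in this step at an unadjusted p under 0.05. In the other 3 comparisons edgeR called 0 of 7, and DESeq2 called 0 in each. At an unadjusted p under 0.05 there were 3 in the first step, all lower, where the median of the list was -1.42. There were 0 in the last step and 2, both higher, over the whole period.

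In 3 cases an organoid stood at the same end of all these measures. D25 organoid 1 had the highest Rgs7 and Gnao1 levels of its day, 35.2 and 222, and the highest forebrain sum, 361, while D25 organoid 2 had the lowest of each, 12.3, 82.0 and 12.8. D30 organoid 6 had the lowest Rgs7 and Gnao1 levels of its day, 12.4 and 68.6, and the lowest forebrain sum, 10.8. Others did not, as D20 organoid 2 had the highest Rgs7 level of its day, 12.6, and the lowest forebrain sum, 15.8, and at D30 Rgs7 and Gnao1 were highest in organoid 4 and the forebrain sum in organoid 1. Emx1, a marker of cortical cells, had 0 reads in 4 of 24 organoids, and Tbr1 in 1. The part of such neurons in the Gnao1 and Rgs7 values was not tested.

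**Figure D3:**
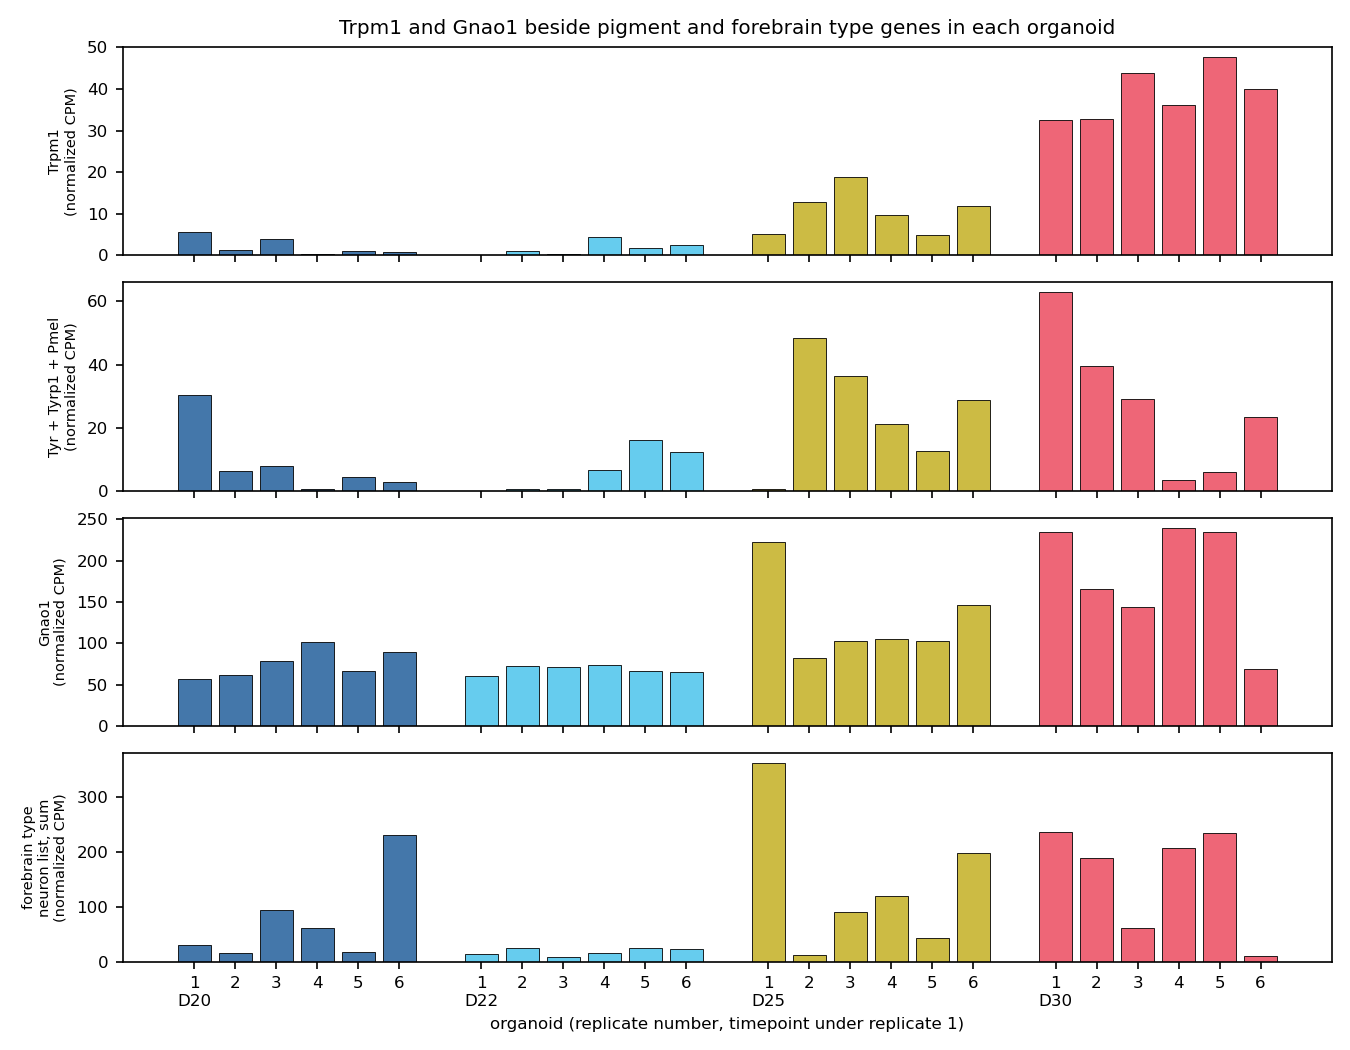
Normalized CPM in each of the 24 organoids of Trpm1, of Tyr, Tyrp1 and Pmel summed, of Gnao1 and of the 7 forebrain type neuron genes summed, with 1 bar per organoid. Tyr, Tyrp1 and Pmel were picked from the pigment list after their values were seen. D22 organoid 1 and D25 organoid 1 have the lowest sums of these genes on their days, 0.0602 and 0.684. Their Trpm1 levels are low, 0.120 and 5.08. D30 organoids 4 and 5 pair low sums of 3.29 and 5.95 with Trpm1 levels of 36.1 and 47.7. D25 organoid 1 is high and D30 organoid 6 low in both Gnao1 and the forebrain type sum.

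Pcp2, at chr8:3623371-3625545 on the minus strand, encodes a GoLoco protein that binds Go and is found in rod bipolar cells and Purkinje cells. It was highest in the early organoids, with a lowest, median and highest normalized CPM of 82.0, 95.4 and 112 at D20, 67.3, 98.5 and 115 at D22, 26.3, 47.2 and 63.7 at D25 and 23.95, 34.2 and 53.1 at D30. Each D25 and each D30 organoid was below all organoids of D20 and D22. The gene fell by 1.04 ± 0.18 from D22 to D25 (adjusted p = 0.000232) and by 1.44 ± 0.18 from D20 to D30 (adjusted p = 1.47e-07), each in 6 of 6. From D25 to D30 the log2 fold change was -0.39 ± 0.18 (adjusted p = 0.226).

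Pcp2 shares 941 of its 1828 exon bases, or 51.5%, with Pet100 on the opposite strand. The libraries were strand-specific, but whether reads were counted by strand is not stated. If they were not, reads on the shared exons would count as ambiguous and for neither gene. Pet100 itself had a mean level of 72.5 ± 11.2 normalized CPM at D20 (SD over 6 organoids) and of 84.5 ± 10.03 at D30, and its log2 fold change was 0.22 ± 0.12 (adjusted p = 0.132). The windows of Pcp2 hold TAATTA at -101 in one and CATGTG at -91 in another.

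Prkca, at chr11:107933387-108343928 on the minus strand, encodes protein kinase C alpha, the common marker of rod bipolar cells. Its lowest, median and highest normalized CPM were 20.1, 25.5 and 27.6 at D20, 22.2, 27.9 and 46.8 at D22, 62.0, 73.3 and 89.7 at D25 and 120.1, 124 and 148 at D30. From D22 on, the days did not overlap, and the organoids of D30 lay close together with a coefficient of variation of 8.21%. The gene rose by 1.31 ± 0.14 from D22 to D25 (adjusted p = 3.71e-07), by 0.77 ± 0.13 from D25 to D30 (adjusted p = 0.000271) and by 2.38 ± 0.14 from D20 to D30 (adjusted p = 3.75e-14), each in 6 of 6.

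Levels of different genes were compared per kilobase of exon. At D30 the mean normalized CPM per kb was highest for Pcp2 at 19.3 ± 5.85 (SD, n = 6), followed by Gnao1 at 16.4 ± 6.18 and Prkca at 14.3 ± 1.17. These 3 levels per kb lie within their spread of each other. If reads on the 941 exon bases shared with Pet100 were not counted, the levels per kb of Pcp2 and its shares, here and below, would be too low. Next in normalized CPM per kb came Lrit3 at 7.44 ± 1.66, Rgs7 at 4.76 ± 1.65, Rgs11 at 4.42 ± 1.57 and Gpr179 at 3.42 ± 1.14. By this exon length the lowest levels per kb at D30 were those of Trpm1 at 2.63 ± 0.41, Grm6 at 2.30 ± 0.97 and Nyx at 1.39 ± 0.41. The RNAs of receptor and channel were thus below that of Gnao1 in whole organoids, where other neurons express Gnao1 too.

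The order was different at D20. Pcp2 then had a mean of 52.3 normalized CPM per kb and Rgs11 of 10.3, above Gnao1 at 6.87, Lrit3 at 4.61, Prkca at 2.75, Rgs7 at 1.54 and Gpr179 at 1.33. Nyx at 0.538, Trpm1 at 0.148 and Grm6 at 0.0105 normalized CPM per kb closed the order. The share of Pcp2 in the summed level per kb of the 10 genes averaged 64.9% at D20 and 25.2% at D30, and the share of Prkca 3.44% and 18.8%. Divided by the longest transcript instead of the exon union, the D30 level per kb was 32.8 for Gnao1, 7.79 for Rgs7, 6.88 for Rgs11 and 6.80 for Trpm1, which puts Gnao1 above Pcp2 at 22.0 and Trpm1 above Gpr179 at 3.54, so the place of Trpm1 in the order depends on the length used.

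**Figure D4:**
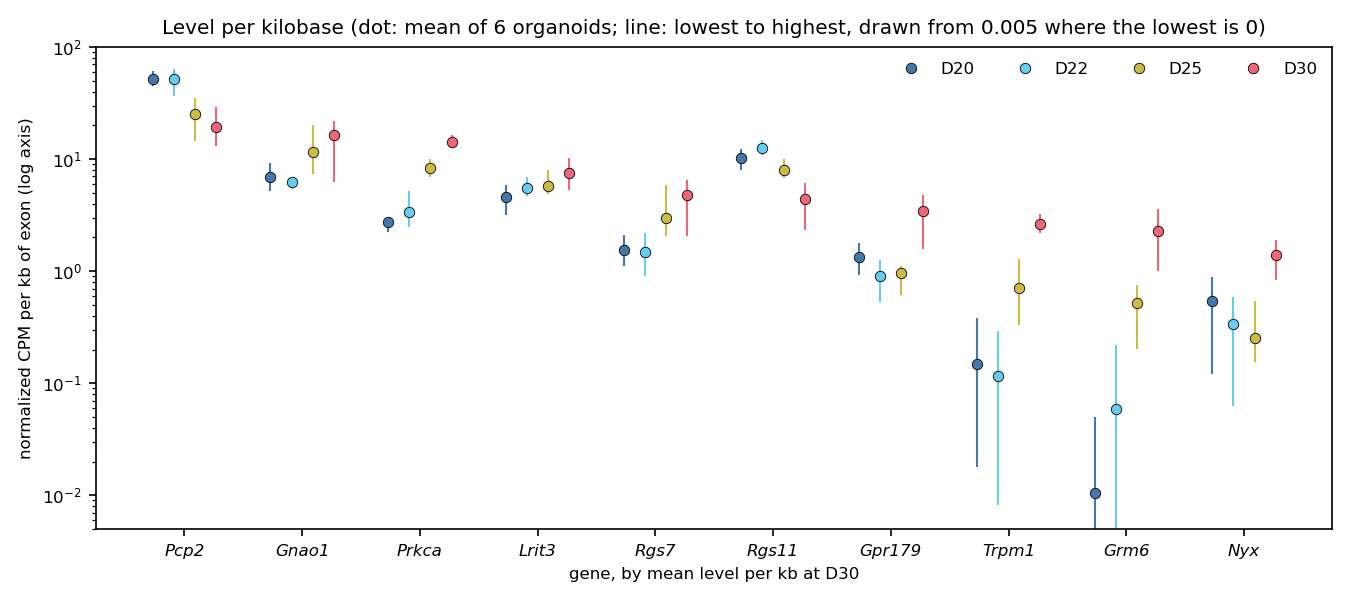
Level of the 10 genes in normalized CPM per kb of exon at D20, D22, D25 and D30 on a log axis, with a dot for the mean of 6 organoids and a line from the lowest to the highest, drawn from the lower edge where the lowest is 0. Grm6 and Trpm1 climb from 0.0105 and 0.148 at D20 to 2.30 and 2.63 at D30, and Pcp2 has the highest mean on each day.

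Among the D30 organoids, 1 was low in most of the cascade. Organoid 1 was the lowest of 6 for 7 of the 10 genes, namely Grm6, Trpm1, Gpr179, Nyx, Lrit3, Rgs11 and Pcp2. Organoid 5 was the highest for 4, Grm6, Trpm1, Gpr179 and Prkca. Organoid 1 also had the lowest D30 sums of rod markers, 5732 normalized CPM, and of bipolar markers, 339, and the highest sum of Müller glia markers, 2436. Most of its cascade RNAs were thus low together with rod and bipolar markers. The part of cell composition in this was not tested.

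Other genes of the cascade, a list of 10 beside the genes of the complex, rose too, and Cabp5 is on this list and on the bipolar list. Over the whole period 8 of 10 were higher and 0 lower by edgeR, with a median log2 fold change of 2.15. Rgs9bp, for an anchor of RGS proteins, rose by 3.45 ± 0.22 (adjusted p = 1.82e-13, in 6 of 6) and Gnb5, for the beta subunit that RGS7 and RGS11 bind, by 2.47 ± 0.17 (adjusted p = 7.99e-13, in 6 of 6). The G protein subunit gene Gnb3 rose by 1.01 ± 0.16, whereas its partner Gng13 was at 0.92 ± 0.31 with an adjusted p of 0.0183. Lrit1 and Lrit2, close relatives of Lrit3, rose by 3.03 ± 0.19 and 2.03 ± 0.21. Of the RIC8 chaperone genes, Ric8b rose by 2.27 ± 0.15 and Ric8a had a log2 fold change of 0.07. In the steps the list had 3, 6 and 4 genes higher and medians of 0.58, 0.94 and 0.51. Rods express several of these genes as well.

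The photoreceptor terminal faces the ON bipolar dendrite. All 13 genes of this list were higher at D30 than at D20, with a median of 1.38. Cabp4 and Cacna1f, which regulate and form the calcium channel of the terminal, rose by 5.73 ± 0.45 (adjusted p = 1.25e-11) and 5.47 ± 0.43 (adjusted p = 1.86e-11), each in 6 of 6, and the channel subunit gene Cacnb2 by 3.44 ± 0.18. Elfn1, whose product binds mGluR6 across the synapse, rose by 0.85 ± 0.18 (adjusted p = 0.000308, in 4 of 6). The list had 5 genes higher from D20 to D22, when 0 of the 10 genes of the dendritic complex were called by edgeR and by DESeq2, then 7 and 3 in the later steps.

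**Figure D5:**
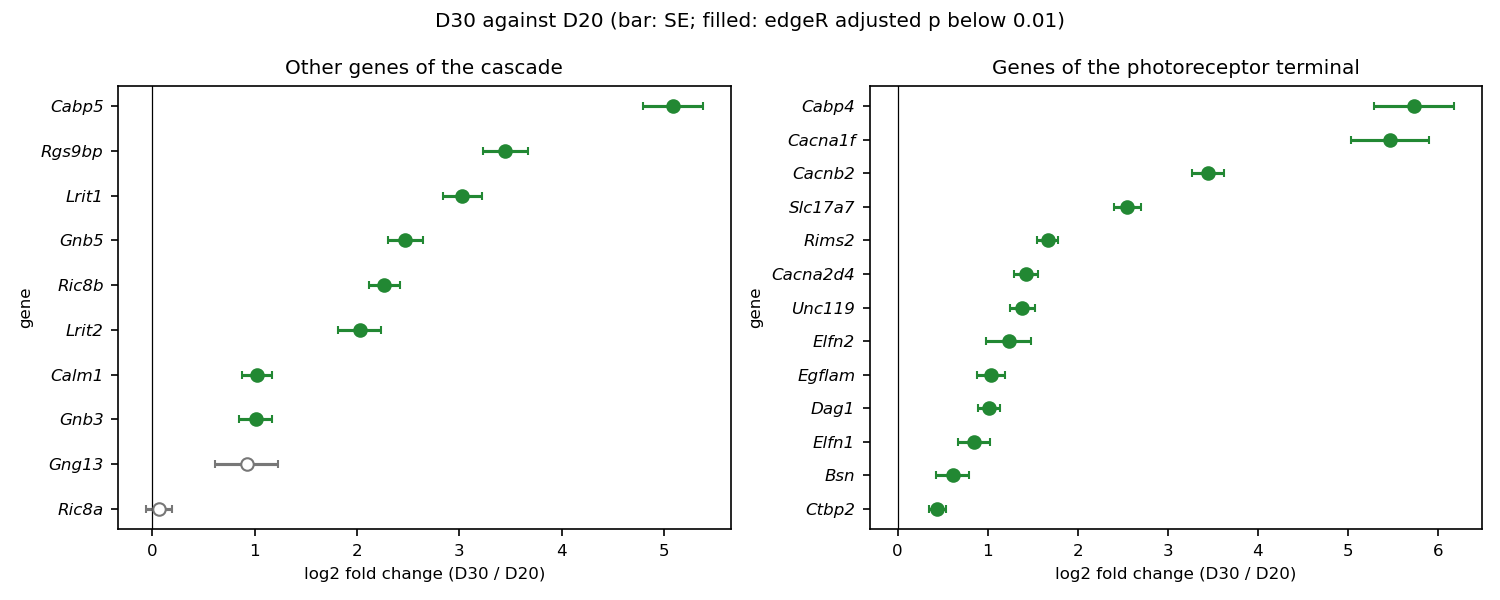
Log2 fold change from D20 to D30 of the other cascade genes and of the genes of the photoreceptor terminal, with bars for the SE and filled points for an edgeR adjusted p below 0.01. All 13 terminal genes are filled, and Gng13 and Ric8a are the open points among the cascade genes.

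Close relatives of the 10 genes show how the families behaved, and Prkcb among them is also on the bipolar list. Of 19 such genes, 18 were tested, all but Trpm6, and from D20 to D30, 10 rose and 3 fell, with a median of 1.46. Rgs9, the RGS gene of photoreceptors, rose by 3.89 ± 0.20 (adjusted p = 3.76e-15, in 6 of 6), in the direction of Rgs7 and against that of Rgs11. Grm8 rose by 3.45 ± 0.42 (adjusted p = 1.09e-07, in 6 of 6), while Grm4 and Grm7 were not called, at -0.62 ± 0.41 and -0.16 ± 0.17. Gpr158, the nearest relative of Gpr179, rose by 1.77 ± 0.28. Trpm3, Trpm7 and Prkcd fell by 0.75, 0.33 and 1.77 on the log2 scale. In the steps the list had 0, 6 and 2 genes higher and 0, 1 and 0 lower. For the 0 from D20 to D22 by edgeR there were 9 at an unadjusted p under 0.05, 4 higher and 5 lower, and 1 by DESeq2.

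Other cell types changed over the same days. Between D20 and D30 all 7 rod markers rose, with a median of 3.31, and 6, 6 and 3 of them rose in the steps. Of 6 Müller glia markers, 4 rose and 1 fell, with a median of 2.49, and the 4 rises from D25 to D30 fell in the same step as those of Gpr179 and Nyx. All 7 progenitor markers fell, with a median of -2.53. Of 8 ganglion cell markers 1 rose and 5 fell, and of 6 tested amacrine markers 1 rose.

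By the root mean square difference of centred log2 levels over the 24 organoids, among 16166 genes, the genes nearest to Grm6 were Gabrr1 (0.754), which encodes a GABA receptor subunit, Gm7546 (0.792), the potassium channel gene Kcnj14 (0.792), the rod exchanger gene Slc24a1 (0.826) and Lrrc2 (0.847). Nearest to Trpm1 were Serpina3n (0.943), Slc39a12 (0.979), Clu (1.00), Cds1 (1.01) and Abca8a (1.05), and Clu is on the Müller glia list. Nearest to Prkca were Gnb1 (0.217), the beta subunit gene of rod transducin, Scamp5 (0.234), Amph (0.236), Gnb5 (0.242) and Guk1 (0.244). These distances were smaller for Prkca than for Grm6 or Trpm1. Since they also take in counting noise, and Grm6 had 0 reads in 7 organoids, they do not rank closeness of pattern between these genes. With a pseudocount of 1 in place of 0.25, 2 of the 5 were shared for Grm6 and 2 for Trpm1.

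Within the complex, the same measure puts Rgs7 and Gnao1 closest, at 0.398, followed by Rgs11 and Pcp2 at 0.467. Prkca was nearest to Rgs7, at 0.630, and Gpr179 and Nyx were nearest to each other, at 0.667. Grm6 was nearest to Trpm1, at 0.951, and farthest from Pcp2, at 2.86. The measure takes in the size and direction of a change as well as its day, and Rgs11 and Pcp2, which both fell, were close. Pcp2 was called from D22 to D25 and Rgs11 from D25 to D30. Rgs11 just missed the threshold from D22 to D25, with an edgeR adjusted p of 0.0105.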

How the data were processed

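RNA counts of 24 retinal organoids at D20, D22, D25 and D30 were used. The authors trimmed the reads with cutadapt 1.5, aligned them with hisat2 to GRCm38/mm10, assembled transcripts with stringtie 1.3.3 and counted reads with htseq-count 0.6.1. The deposited counts are whole numbers without normalization for 126602 features, 46603 annotated genes and 79999 assembled loci, from strand-specific libraries, and use of the strand in counting was not stated. The 5 htseq summary lines were left out. Between 0.457% and 0.648% of uniquely aligned reads were ambiguous between features.

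A filter discarded features whose base mean was under 10, as the authors did, which left 16253 annotated genes and 30696 loci. They were scaled by TMM and tested with edgeR's quasi-likelihood F-test (edgeR 4.0.16, R 4.3.3) in 1 joint fit, and p-values were adjusted by Benjamini-Hochberg over 46949 features at a threshold of 0.01, the limit of the authors, who used DESeq2. SE were derived from the test statistic. The common biological coefficient of variation was 0.385. The p-values measure the spread between organoids of 1 experiment. Intervals and floors of 3 counts cover counting error only. No library repeated another of the same day, and pairs from different days were not compared.

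Named genes are the 10 cascade genes, the genes of the lists (cascade partners, photoreceptor terminal, paralogs, bipolar, OFF bipolar, rod photoreceptor, amacrine, ganglion, Müller glia, pigment cell, forebrain type neuron and progenitor) and, for Grm6, Trpm1 and Prkca, the 5 genes with the smallest root mean square difference of centred log2 of normalized CPM plus 0.25. The cascade genes and the lists were chosen with earlier results of these data known. A list is described by its counts and median, without a test of the list. Values of some single genes of the lists are not reported here.

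Coordinates and exon lengths come from a GENCODE annotation of GRCm38, which matched 46005 of 46603 identifiers, and promoters from RefSeq (GRCm38.p6). Alternatives were DESeq2 1.42.0, edgeR with the size factors of DESeq2, filterByExpr, no low-count filter, annotated genes only, a replicate block, the compared timepoints only, omission of each organoid, the longest transcript for levels per kb and a pseudocount of 1. The scripts were tested on simulated data, with criteria that were replaced after the first run. Many 2-fold changes were not called there at this threshold, so small changes may be missed. Figures were drawn with matplotlib 3.10.9 in Python 3.11.15.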

Additional observations from a re-analysis of the deposited data

Results flagged for a closer look

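Among 40 groups of 6 organoids, 1 for each of the 10 genes on each day, 3 hold an organoid far from the other 5, where chance gives about 1 in 20 groups. Grm6 was 0.273 normalized CPM in D20 organoid 3, and 0 to 0.0692 in the others, which are all at or under 3 reads. Nyx was 2.83 normalized CPM in D25 organoid 3, and 0.798 to 1.303 in the others. Rgs7 was 35.2 normalized CPM in D25 organoid 1, and 12.3 to 18.0 in the others, and this organoid also had the highest Gnao1 level and forebrain type sum of D25. The cause was not tested.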

How the results depend on the processing

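Of 1240 values of the 10 genes under the alternatives, 1155 kept their direction and side of the threshold, 37 lost a call, 21 gained one and 27 changed sign, the last all in values that were not called. All came from 1 experiment, and genes near 3 reads, such as Grm6 at D20, have little precision. Of the scaling alternatives, the largest shift of the median of annotated genes was -0.10, with annotated genes only from D22 to D25.

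Sign changes were as follows. For D22 against D20, Pcp2 was at 0.00572 with DESeq2, 0.00573 with its size factors, 0.0703 with annotated genes only, 0.0177 with the compared timepoints only, 0.00511 with filterByExpr and 0.0235 with no filter, and Rgs7 at 0.0342 with annotated genes only. For D25 against D22, with annotated genes only, Gpr179 was at -0.0164 and Lrit3 at -0.0144. Leaving out 1 organoid gave ranges of -0.85 to 0.21 for Trpm1, -0.19 to 0.0763 for Rgs7 and -0.0546 to 0.0902 for Pcp2 (D22 against D20), and of -0.0430 to 0.18 for Gpr179 and -0.0271 to 0.16 for Lrit3 (D25 against D22). The cause was not tested.

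The number of the 10 genes called was 0 in every alternative for D22 against D20. It was 4 to 7 for D25 against D22, 4 to 6 for D30 against D25 and 9 to 10 for D30 against D20. Gains were Rgs11 and Rgs7 in D25 against D22, with adjusted p of 0.00132 to 0.0297 and 0.00186 to 0.0649 over the alternatives, and Rgs7 in D30 against D25.

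Features called from D20 to D22 were 806, and 1605 with DESeq2. Leaving out 1 organoid gave 415 to 1251, with 478 without D20 organoid 1, 529 without D22 organoid 2, 415 without D22 organoid 3 and 1251 without D22 organoid 6. From D22 to D25 the range was 1561 to 2857 around 2475, with 1561 without D22 organoid 1. From D20 to D30, 7322 were called with annotated genes only, which tests fewer features (16284), against 12565. The cause of the other shifts was not tested.

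The replicate block gave 746, 2215, 1478 and 12224 features and 0, 4, 5 and 10 of the 10 genes in the 4 comparisons. As a pairing check, correlations of organoids with the same number ran from -0.03 to 0.03, -0.04 to 0.08, -0.06 to 0.21 and -0.08 to 0.05, and the own number was the best match for 0, 1, 2 and 2 of 6, so the numbers do not pair organoids.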
